A study of Homo sapiens with 16 samples.

Results

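The mitosis genes are 45 genes whose products enter, run or end cell division, followed here through RNA sequencing of DU145 cells under lactate and a BET inhibitor. They were chosen by symbol, from a list of named genes and not by a cut on their values, but with earlier results of these data known. All 45 were matched to an Ensembl gene identifier among the 64792 in the count table. Of these members, 43 had enough counts to be tested, beside 14690 tested genes in all. KIF15, a spindle kinesin, had 0 counts in every library, and SPC25, a subunit of the NDC80 complex at the kinetochore, had 1 to 12 counts. Both stayed untested, and whether these cells transcribe them was not read from such counts.

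Mitosis begins when cyclin B and CDK1 become active together and ends when the anaphase-promoting complex marks cyclin B and securin for destruction. In between, kinetochores tie chromosomes to spindle microtubules, the spindle checkpoint delays anaphase until every chromosome is attached, and kinesin motors shape the spindle and its midzone before the cell is cleft. Most of these genes are transcribed in G2 and M phase only, under repression by the DREAM complex in resting cells and activation by B-MYB, MuvB, NF-Y and FOXM1 in dividing ones, and their RNA is widely read as a sign of dividing cells.

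DU145 is an established human prostate cancer line. There were 4 groups of 4 libraries: cells kept as control, cells given lactate, cells given I-BET762, and cells given both agents. I-BET762 occupies the bromodomains of BET proteins, the pockets with which they read acetylated histones. By the sample titles, which were followed, all 4 groups are this 1 cell line, with no other genotype named. The cell line field of the samples given both treatments carries other line numbers. The labels give neither dose nor duration, and they call the replicates independent. P-values measure the spread between these libraries only. In bulk RNA, fewer cells in G2 and mitosis and less RNA per such cell cannot be told apart.

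Total counts per library ran from 10711859 in lactate replicate 1 to 17173584 in lactate replicate 3. Levels are CPM, counts scaled to a common library size after TMM adjustment. The epithelial keratins KRT8 and KRT18 were at 822 ± 94.4 and 824 ± 68.6 CPM in control cells (SD, n = 4). HEXIM1, which BET inhibitors are known to induce, went against the label in 2 libraries. Control replicate 2 had 135.1 CPM of HEXIM1 against 70 to 77.4 in the other control libraries, and I-BET762 replicate 2 had 89.6 CPM against 113.3 to 148.8 in the others of its group. Between groups, HEXIM1 did not pass for I-BET762 against control (log2 fold change 0.38, SE 0.19, edgeR quasi-likelihood test, Benjamini-Hochberg adjusted p = 0.486). With both treatments against control HEXIM1 was higher (0.59, adjusted p under 0.05). Lactate replicate 1 stood apart over all tested genes and for several members, given below. Its log2 CPM correlated with those of the other lactate libraries at 0.9437, 0.9413 and 0.9685, where their own pairs ran from 0.978 to 0.9895. It also had the lowest TMM factor, 0.9198. Results are therefore also given without lactate replicate 1, or without the 2 libraries whose HEXIM1 went against the label, where they differ.

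Promoters are shown for 6 members because the tested members moved mostly in 1 direction. The motifs of a known promoter layout of G2 and M phase genes can be searched in them. The layout joins a CCAAT box, bound by NF-Y, to a cell cycle homology element (CHR), bound by the MuvB core of DREAM. RefSeq promoter windows (GRCh38.p14) were found for 38 of the 45 members. AURKA, TPX2, TTK, UBE2C, BUB3, BIRC5 and FOXM1 were not in the table. The 4 members listed first fell under lactate, and HMMR and CDK1 did not change. Each line gives the 150 bases before the RefSeq start site, 5′ to 3′ on the gene's strand, with matches in capitals. Start sites in the gene coordinates given below, from GENCODE, can differ from those of RefSeq. The CCAAT box was searched as CCAAT on both strands. The CHR was searched as TTTGAA on both strands and, for its variant form, as TTCGAA, which is its own reverse complement.
KIF4A, chrX:70289954-70290103, plus strand: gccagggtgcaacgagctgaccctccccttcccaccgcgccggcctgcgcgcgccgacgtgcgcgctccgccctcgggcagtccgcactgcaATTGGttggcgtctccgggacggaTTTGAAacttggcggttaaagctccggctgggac
KIF11, chr10:92592980-92593129, plus strand: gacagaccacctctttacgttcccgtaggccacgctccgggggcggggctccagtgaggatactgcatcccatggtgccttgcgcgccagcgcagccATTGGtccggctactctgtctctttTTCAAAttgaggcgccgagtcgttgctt
DLGAP5, chr14:55191586-55191735, minus strand: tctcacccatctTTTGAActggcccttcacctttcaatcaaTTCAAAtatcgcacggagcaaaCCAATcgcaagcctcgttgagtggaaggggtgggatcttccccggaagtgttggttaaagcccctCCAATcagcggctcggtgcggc
KIF23, chr15:69414199-69414348, plus strand: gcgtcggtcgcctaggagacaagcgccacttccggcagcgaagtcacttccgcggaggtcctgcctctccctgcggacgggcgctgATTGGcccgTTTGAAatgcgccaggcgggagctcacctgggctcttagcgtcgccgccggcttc
HMMR, chr5:163460482-163460631, plus strand: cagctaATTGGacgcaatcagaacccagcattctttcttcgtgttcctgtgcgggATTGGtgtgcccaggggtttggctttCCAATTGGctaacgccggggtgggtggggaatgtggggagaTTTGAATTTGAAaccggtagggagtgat
CDK1, chr10:60778328-60778477, plus strand: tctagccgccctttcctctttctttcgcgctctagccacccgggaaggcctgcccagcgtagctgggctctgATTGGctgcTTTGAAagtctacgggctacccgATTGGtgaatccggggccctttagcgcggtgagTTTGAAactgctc
In KIF4A the CCAAT box began 58 bases and the CHR 34 bases before the start site, and in KIF11 they began 53 and 28 bases before it. In KIF23 they began 64 and 55 bases before it. DLGAP5 had the other order, with CHR matches 138 and 109 bases and CCAAT matches 87 and 22 bases before the start site. Order and spacing of the motifs were not tested. HMMR, with 4 CCAAT matches and 2 adjoining CHR matches, and CDK1, with 2 of each, carried the same words. All 6 were picked from members that hold both motifs, so their sharing them is no result.

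Over the whole window, 250 bases before to 50 after the start site, 72.9% of the 48 member windows held CCAAT, 68.8% held a CHR and 56.2% held both. Of the 35116 windows of all promoters, 34.6%, 16.4% and 6.38% did so, counted on both strands. Of the windows of all tested genes, 34.2%, 11.7% and 4.63% did so. Both motifs stood in 68.8% of the 16 windows of members changed under lactate and in 50% of the 30 windows of tested members that did not change. Counted by gene, both stood in 73.3% of 15 changed members and in 61.9% of 21 unchanged ones. These shares describe letters in windows, and several windows can belong to 1 gene.

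In control cells the members differed widely in level. Per kilobase of exon, TOP2A was highest at 96.9 CPM per kb, followed by CCNB1 at 93.9 and TPX2 at 81.2, and CDC25C was at 7.12. PRC1 and NUSAP1, which bundle midzone and spindle microtubules, stood at 1.2 and 7.66 CPM per kb. The annotation lets other genes on the same strand overlap 57.6% and 62.2% of their exon bases, so the counts of both are uncertain. Among the other members the largest such shares were 10.2% of BUB1B on the same strand, and 15.9% of FOXM1 and 12.5% of PLK1 on the opposite strand.

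As a group the members took 0.634 ± 0.026% of all counts in control libraries, 0.536 ± 0.01% with lactate, 0.559 ± 0.025% with I-BET762 and 0.485 ± 0.034% with both (SD, n = 4). The control libraries ran from 0.603% to 0.661%, and no library of another group reached 0.603%. For each library, the median over the 43 tested members of the log2 difference from the control mean was also taken. It ran from -0.04 to 0.08 in control, from -0.33 to -0.15 with lactate, from -0.26 to -0.08 with I-BET762 and from -0.50 to -0.29 with both. The highest lactate library by this median was replicate 1 and the lowest of all was replicate 2 given both treatments, in which all 43 members lay below the control mean. The control libraries make up the control mean, so their own values lie near 0 in part by construction. Neither this median nor the count below the control mean was computed for all tested genes.

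**Figure D1:**
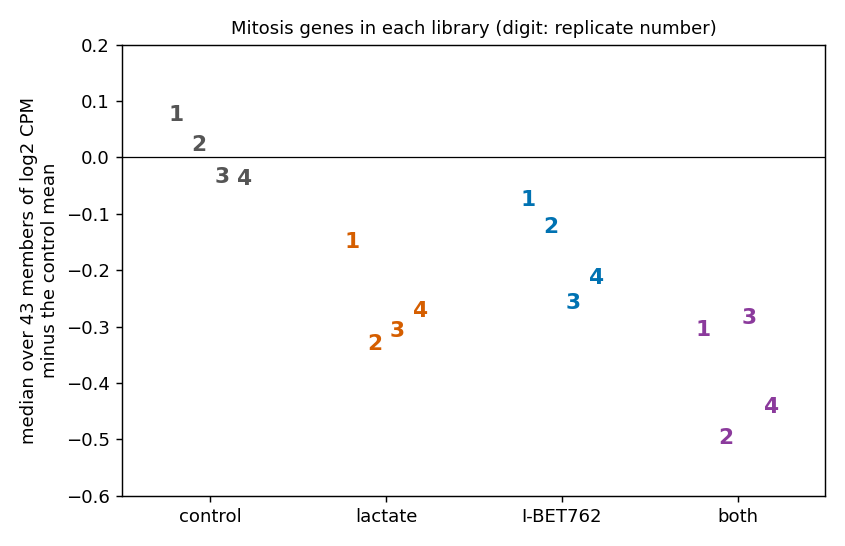
Median over the 43 tested mitosis genes of log2 CPM minus the control mean (vertical axis), for each of the 16 libraries; digits are replicate numbers and groups are along the horizontal axis. Every library of the lactate, I-BET762 and combined groups sits below the lowest control library at -0.04. The control mean is that of the control libraries shown, which holds them near 0 in part.

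Lactate lowered 18 of the 43 tested members against control and raised 1, UBE2C (edgeR quasi-likelihood test, Benjamini-Hochberg adjusted p under 0.05). Of all tested genes, 10.1% fell and 13.6% rose, 23.7% in all. The members' median log2 fold change was -0.17, where that of all tested genes was 0.03. The lower members were 3 spindle checkpoint genes, 6 kinesins, 4 spindle and cytokinesis genes, the kinetochore gene CENPF, and CCNA2, FOXM1, TPX2 and MKI67. In 17 members every lactate library lay below every control library, which 9.12% of all tested genes did, and in 1 every lactate library lay above (10.9%).

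**Figure D2:**
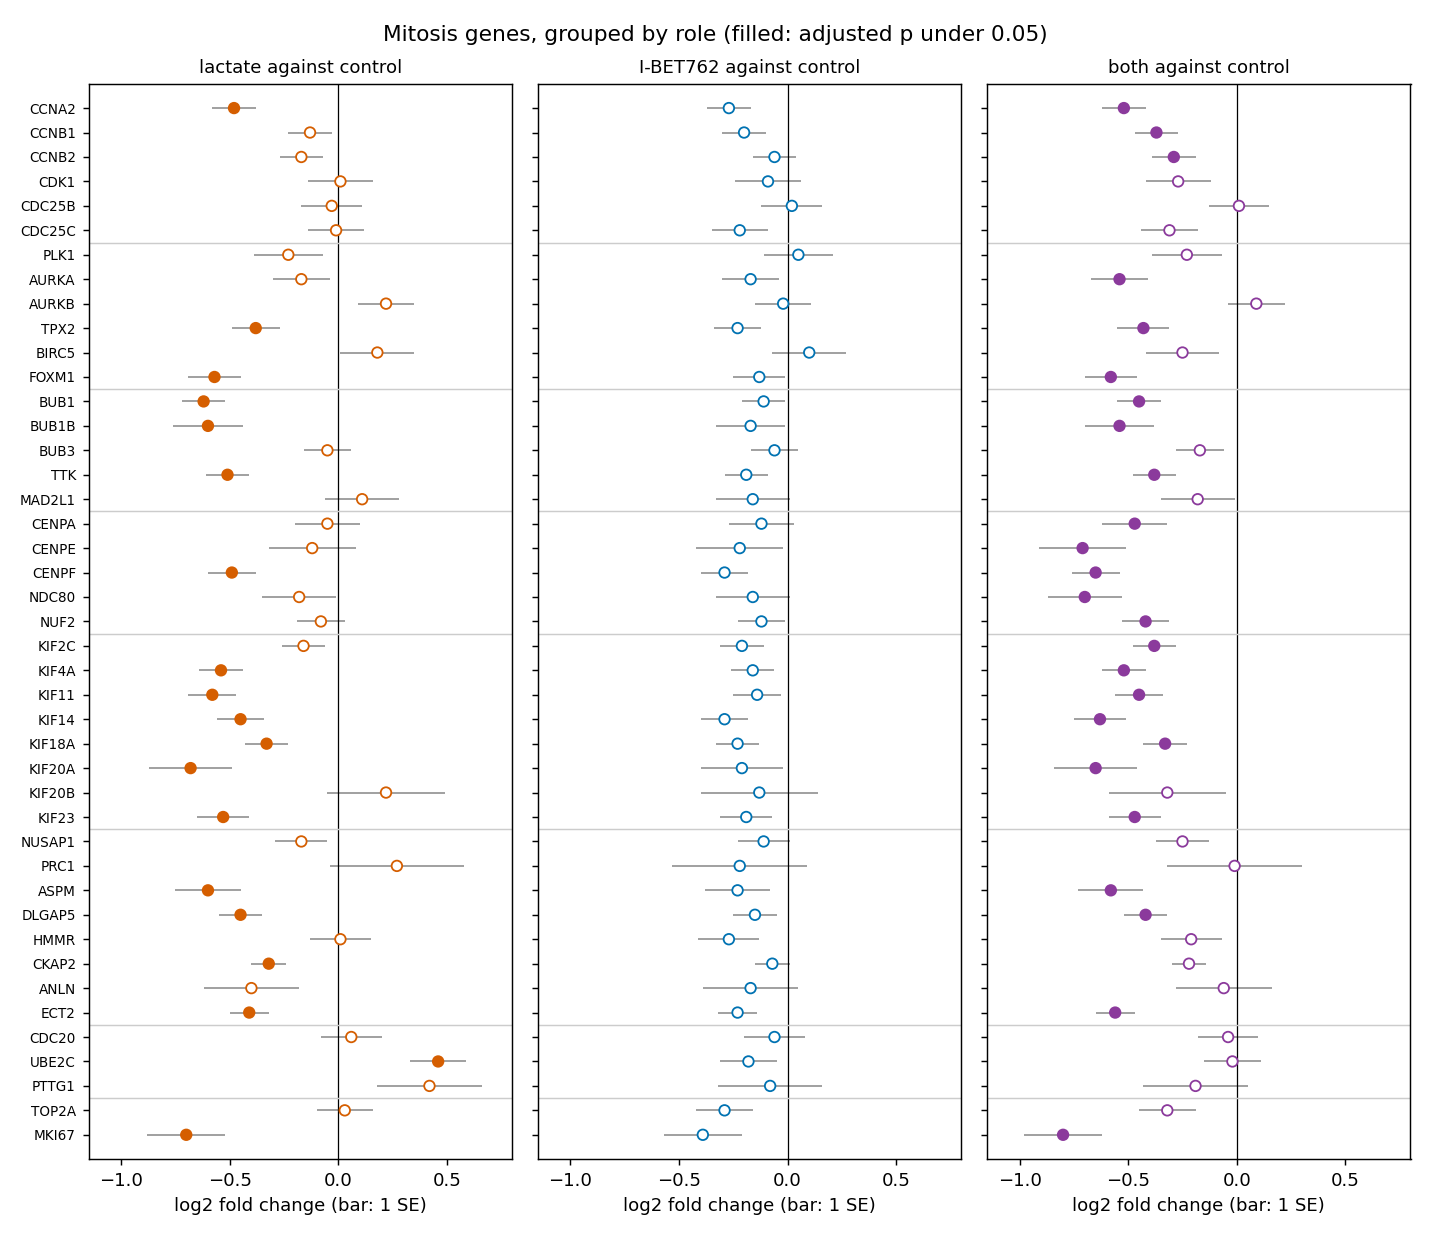
Log2 fold change of each of the 43 tested mitosis genes (rows, grouped by role and separated by grey lines) against control under lactate, I-BET762 and both; bars are 1 SE and filled points passed adjusted p under 0.05. With lactate 18 fell and UBE2C rose, with I-BET762 none passed, and with both 25 fell, among them all 5 kinetochore genes.

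Among the cyclins and the phosphatases that switch on CDK1, only CCNA2 changed under lactate (1 of 6). CCNA2, cyclin A2, which drives S phase and G2, had 67.7, 65.2, 57.9 and 63.5 CPM in the 4 control libraries and 41.7, 42, 49.8 and 49 with lactate. Its groups did not overlap, and it fell by 0.48 on the log2 scale (SE 0.10, adjusted p = 0.0045). Cyclin B1, which forms the mitotic kinase with CDK1, did not pass the test. CCNB1 had 248.3, 240.7, 234.5 and 237.7 CPM in control and 235.5, 198.4, 204.3 and 238.5 with lactate, a log2 fold change of -0.13 (95% interval -0.34 to 0.08, adjusted p = 0.338). CDK1 had 139, 141.8, 126.7 and 148.6 CPM in control and 194.1, 103.1, 115.2 and 146.5 with lactate, with lactate replicate 1 highest and replicate 2 lowest of these 8 libraries. Its log2 fold change was 0.01 (95% interval -0.32 to 0.33).

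FOXM1 and TPX2 were the 2 of 6 members among the mitotic kinases, their activators and FOXM1 that changed, both lower. FOXM1, a transcription factor of G2 and M phase genes, had 177.5, 178.9, 179.6 and 190.5 CPM in control and 91.6, 124.7, 142.7 and 129 with lactate. No lactate library reached a control library, and FOXM1 fell by 0.57 (SE 0.12, adjusted p = 0.00389). TPX2, which activates Aurora A on spindle microtubules, fell by 0.38 (SE 0.11, adjusted p = 0.0269). The kinases themselves did not pass the test. PLK1, which acts from mitotic entry to cytokinesis, had 116.4, 92.5, 78 and 88.6 CPM in control and 53.3, 93.4, 88.2 and 84.8 with lactate, a log2 fold change of -0.23 (SE 0.16). AURKA, the spindle pole kinase Aurora A, had 212.4, 181.9, 200.5 and 189.9 CPM in control and 223.3, 164.1, 149.1 and 162 with lactate. In AURKA lactate replicate 1 lay above all 4 control libraries and the other 3 lay below them, with a log2 fold change of -0.17 over all 4 and -0.31 (adjusted p = 0.0378) without replicate 1. AURKB, the kinase of the chromosomal passenger complex, had 64.6, 67, 49.6 and 57.8 CPM in control and 69.4, 57, 65.3 and 87.3 with lactate, and its log2 fold change was 0.22 (SE 0.13). BIRC5, survivin, a partner of AURKB in that complex, had 181.9, 173.7, 139.1 and 194.9 CPM in control and 267.1, 144.6, 159.2 and 211.2 with lactate. For BIRC5, 2 lactate libraries lay above the control range and 2 within it, and its log2 fold change was 0.18 (SE 0.17).

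Of the 5 spindle checkpoint members BUB1, TTK and BUB1B fell. BUB1 (ENSG00000169679, chr2:110637698-110678114, minus strand, GRCh38), a kinase that recruits checkpoint proteins to kinetochores, had 149.6, 165.5, 147.8 and 141.4 CPM in control and 86.2, 108.3, 107 and 90.8 with lactate. BUB1 fell by 0.62 (SE 0.10, adjusted p = 0.00107), the smallest p of any member in this comparison, with no overlap. TTK, the kinase MPS1 at the top of the checkpoint, had 69, 67.9, 62.1 and 63.8 CPM in control and 41.7, 49.1, 50.7 and 42.9 with lactate, also without overlap. It fell by 0.51 (SE 0.10, adjusted p = 0.00329), and BUB1B, BUBR1, an inhibitor of CDC20, fell by 0.60 (SE 0.16, adjusted p = 0.0143). BUB3 and MAD2L1, which are adaptor and inhibitor subunits without kinase activity, had log2 fold changes of -0.05 (SE 0.11) and 0.11 (SE 0.17).

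At the centromere and kinetochore, 1 of 5 tested members fell under lactate. CENPF, a large protein of the outer kinetochore, had 270.9, 276.8, 300.3 and 256.9 CPM in control and 231.9, 198.1, 198.1 and 157.6 with lactate. Its groups did not overlap and it fell by 0.49 (SE 0.11, adjusted p = 0.0074). In the other 4 members lactate replicate 1 lay above all control and lactate libraries. NDC80, the microtubule-binding subunit, had 167.4 CPM there and 80.7, 85.3 and 101.5 in the other lactate libraries, where control ran from 114.8 to 128.8. CENPE, a kinetochore kinesin, had 188.5 CPM there and 90.1, 77.2 and 90.1 in the others, where control ran from 114.1 to 128.8. Without that library NDC80 fell by 0.47 (adjusted p = 0.0021) and CENPE by 0.49 (adjusted p = 0.00199), where their log2 fold changes with it were -0.18 and -0.12.

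Of the 8 tested kinesin motors 6 fell, the largest count of any role. KIF4A (ENSG00000090889, chrX:70290090-70420832, plus strand), a chromosome-bound motor that also acts at the midzone, had 81.7, 84.5, 78.7 and 74.4 CPM in control and 49.4, 56.6, 57.9 and 55.3 with lactate. KIF11 (ENSG00000138160, chr10:92593286-92655395, plus strand), the motor that pushes spindle poles apart, had 151.2, 155, 127 and 126 CPM in control and 82.3, 95.9, 109.7 and 84.8 with lactate. KIF23, a motor of centralspindlin at the midzone, had 176.3, 175.9, 146.3 and 141.1 CPM in control and 92.4, 120.6, 121.6 and 108.9 with lactate. No lactate library reached a control library for any of the 3 motors. They fell by 0.54 (SE 0.10, adjusted p = 0.0015), 0.58 (SE 0.11, adjusted p = 0.00233) and 0.53 (SE 0.12, adjusted p = 0.00692). KIF20A, which carries the passenger complex to the midzone, fell by 0.68 (adjusted p = 0.0166), KIF14 by 0.45 (adjusted p = 0.0122) and KIF18A by 0.33 (adjusted p = 0.0213). KIF20B differed: lactate replicate 1 had 232.4 CPM and the others 73.5, 69.9 and 91.1, where control ran from 87.7 to 112. Its log2 fold change was 0.22 (SE 0.27) with that library and -0.36 (adjusted p = 0.0303) without it.

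Of the 8 spindle, midzone and cytokinesis members, 4 fell. ECT2, the exchange factor that switches on RhoA at the cleavage furrow, had 425.4, 379.9, 448.2 and 404.3 CPM in control and 308.7, 340.1, 328.5 and 274.6 with lactate. DLGAP5, a spindle microtubule stabiliser, had 165, 172.8, 150.1 and 152.3 CPM in control and 103.6, 123.4, 126.9 and 115.1 with lactate. Both were without overlap and fell by 0.41 (SE 0.09, adjusted p = 0.00735) and 0.45 (SE 0.10, adjusted p = 0.00522). CKAP2, a spindle-associated protein, had 161.6, 167.1, 156.8 and 148.2 CPM in control and 130.6, 124.1, 129.4 and 124.4 with lactate, without overlap, and fell by 0.32 (SE 0.08, adjusted p = 0.00928). ASPM, which focuses spindle poles, had 159, 169, 143.9 and 112 CPM in control and 85.9, 118.9, 104.8 and 74.3 with lactate, and it fell by 0.60 (SE 0.15, adjusted p = 0.00991). Control replicate 4 of ASPM lay below lactate replicate 2, so its groups overlapped. ANLN, anillin of the contractile ring, stood at -0.40 on the log2 scale (SE 0.22, adjusted p = 0.175).

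Of the 3 members that trigger or restrain anaphase, 1 rose under lactate and none fell. UBE2C, the ubiquitin-conjugating enzyme of the anaphase-promoting complex, had 68.7, 56.7, 61.5 and 68.3 CPM in control and 105.7, 71.2, 73.9 and 100.4 with lactate. Every lactate library of UBE2C lay above every control library, and it rose by 0.46 (SE 0.13, adjusted p = 0.0176). It no longer passed without the 2 libraries whose HEXIM1 went against the label (0.40, adjusted p = 0.0578), nor without control replicate 2, control replicate 3 or lactate replicate 4 (adjusted p = 0.0521, 0.0543 and 0.0628). CDC20, the activator of the complex, had 153.8, 157.7, 103.6 and 124.1 CPM in control and 138.7, 141.3, 127.1 and 154.9 with lactate, with a log2 fold change of 0.06 (95% interval -0.25 to 0.37). PTTG1, securin, the inhibitor of separase, had 102.5, 93.2, 92.7 and 100.7 CPM in control and 236.4, 80.2, 79.7 and 124.9 with lactate. Its log2 fold change was 0.42 (SE 0.24, adjusted p = 0.211) and was -0.04 without lactate replicate 1.

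The proliferation marker MKI67, Ki-67, which coats mitotic chromosomes, had 464.4, 488.5, 495.7 and 363.6 CPM in control and 217.1, 346.7, 349 and 199.3 with lactate. MKI67 fell by 0.70 (SE 0.18, adjusted p = 0.0111), the lowest log2 fold change of the 43 members, and its groups did not overlap. TOP2A, the topoisomerase that untangles sister chromatids, had 689.5, 641, 602.3 and 561.8 CPM in control and 840.6, 537.8, 580.3 and 584.9 with lactate. Lactate replicate 1 was highest of all 16 libraries for TOP2A, whose log2 fold change was 0.03 (SE 0.13) with it and -0.14 (adjusted p = 0.279) without it.

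**Figure D3:**
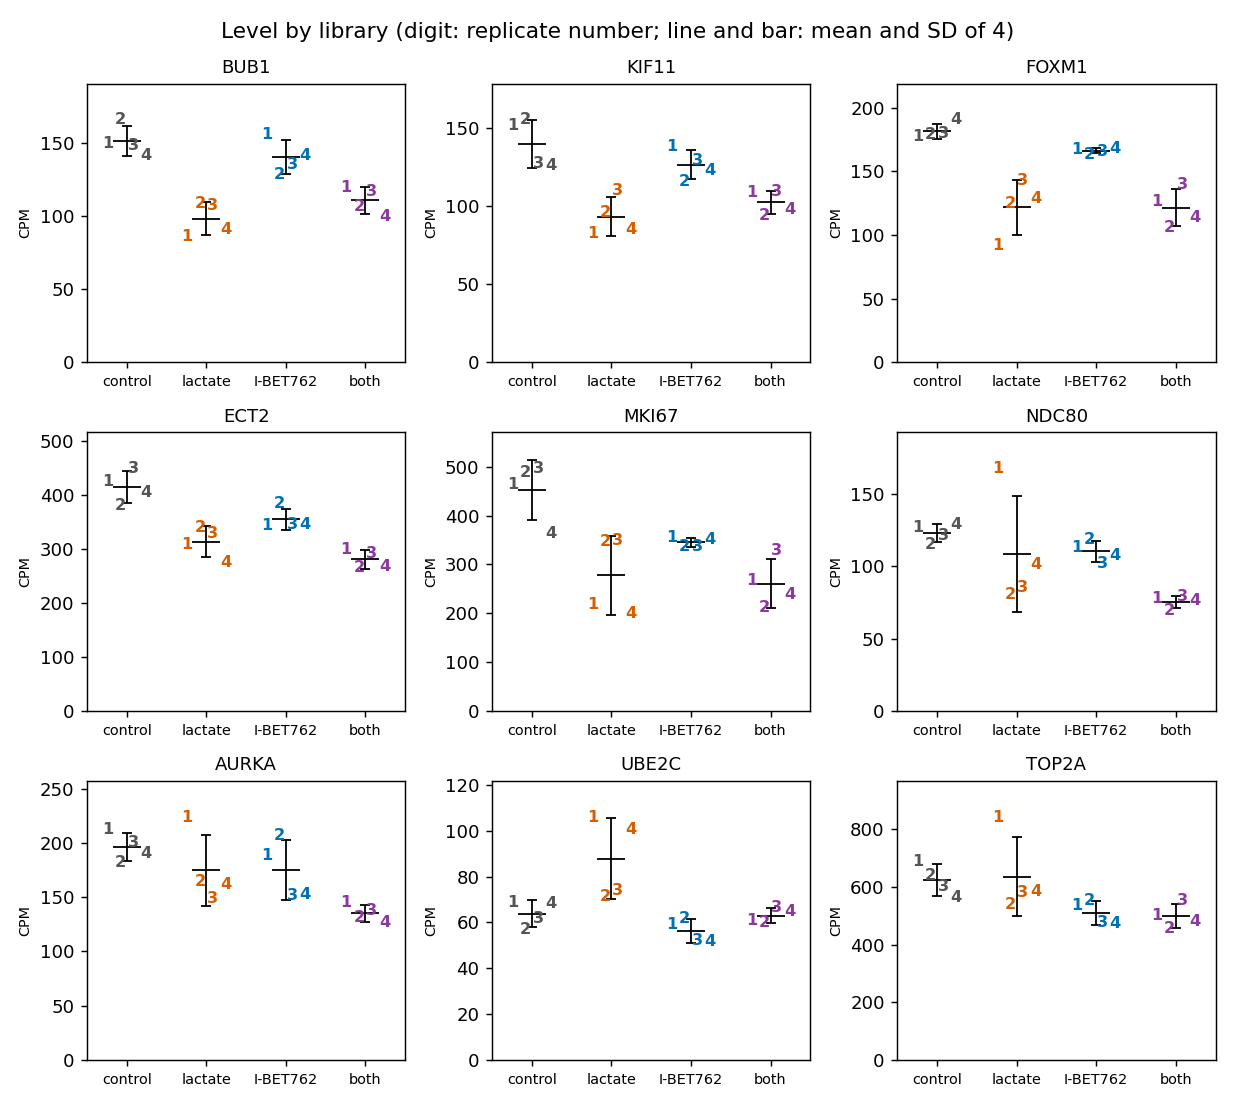
Level in CPM (vertical axes from 0) of 9 mitosis genes in each library by group; digits are replicate numbers, and lines and bars are the mean and SD of 4 libraries. BUB1, KIF11, FOXM1, ECT2 and MKI67 were lower in every lactate library than in any control library, while lactate replicate 1 was highest for NDC80, AURKA and TOP2A.

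Without lactate replicate 1, 22 members fell and UBE2C rose, and all 19 changed members were among these. Without the 2 libraries whose HEXIM1 went against the label, 18 fell and none rose. Fitted on the lactate and control libraries alone, 6 members passed, all lower: CCNA2, FOXM1, BUB1, TTK, KIF4A and KIF11. These 6 were also the members that passed under each of the 21 alternatives run. Of all tested genes 10.7% were lower without lactate replicate 1, 6.67% without the HEXIM1 libraries and 1.21% with the groups fitted alone. Leaving out 1 library ended the calls of TPX2 (control replicate 1, 3 or 4), KIF18A (control replicate 1 or 3), KIF20A (control replicate 3) and BUB1B (lactate replicate 4), beside UBE2C. Members with longer exons had lower fold changes under lactate (Spearman's rho -0.41 over 43 members, which share their libraries), as had all tested genes (rho -0.34 over 14603 genes). With GC content in place of exon length, rho was 0.14 over the members and 0.43 over all tested genes. Of the 15 shortest members, of 1286 to 3646 bases, 2 fell and 1 rose. Of the 14 in the middle 9 fell, and of the 14 longest, of 5499 to 12807 bases, 7 fell. For each library, the deviation of all tested genes from their means over the 16 libraries was also set against exon length. Lactate replicates 1 and 4 leaned most to short exons (rho -0.40 and -0.42), where the 4 control libraries gave 0.03 to 0.27. This was not computed for the members alone. With the trends of each library on GC content and exon length taken out, 8.09% of all tested genes were lower. Of the members 16 were lower, 14 of them among the 19. The 5 that no longer passed were UBE2C at 0.26 on the log2 scale (adjusted p = 0.0532), CENPF at -0.23 (adjusted p = 0.167), KIF14 at -0.25 (adjusted p = 0.0869), KIF18A at -0.22 (adjusted p = 0.101) and CKAP2 at -0.22 (adjusted p = 0.0564).

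**Figure D4:**
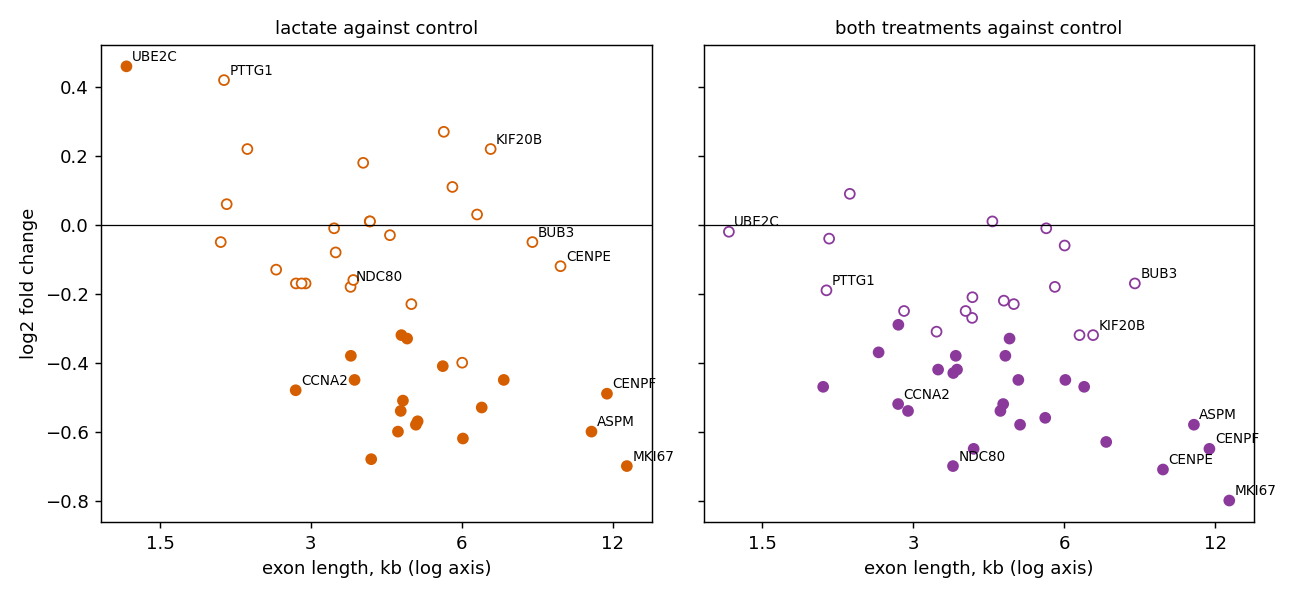
Log2 fold change of the 43 tested mitosis genes (vertical axes) against exon length in kb (log axes), for lactate and for both treatments against control; filled points passed adjusted p under 0.05. Under lactate UBE2C is the shortest and highest and MKI67 the longest and lowest, and with both treatments 9 of the 15 shortest members fell.

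I-BET762 alone changed 0 of the 43 members by edgeR, and 0 by DESeq2 and limma-voom. Of all tested genes 0.442% passed by edgeR, 65 genes that were all higher, while DESeq2 called 542 (529 higher and 13 lower) and limma-voom 0. Without the 2 libraries whose HEXIM1 went against the label, edgeR called 10 genes (6 higher and 4 lower), and without lactate replicate 1 as well 981 (742 higher and 239 lower). No member was among them in either setting. Leaving out 1 library gave 277 genes without control replicate 4, 105 without I-BET762 replicate 4 and 0 without any other control or I-BET762 library. At an unadjusted p under 0.05, 8 members were lower and none higher, against 2.14% of all tested genes lower and 9.31% higher. The log2 fold changes were small, between -0.39 and 0.10, with a median of -0.17 (all tested genes -0.03), and 40 of 43 lay below 0, as 57% of all tested genes did. Fold changes followed GC content, with rho 0.54 over all tested genes and 0.33 over the members. The members' median GC content was 42.5%, against 48.1% for all tested genes. With GC content corrected the members' median was -0.09 (all tested genes 0.002), and 0 of all tested genes passed. MKI67 had the lowest value, -0.39 (SE 0.18, adjusted p = 0.391), with 355.8, 337.1, 335.8 and 350.9 CPM against 363.6 to 495.7 in control. TOP2A had 536.4, 554.4, 475.7 and 471.7 CPM against 561.8 to 689.5 in control, a log2 fold change of -0.29 (SE 0.13, adjusted p = 0.384). In both genes, and in FOXM1, TPX2, CENPE, CENPF, NUF2, KIF2C and KIF18A, every I-BET762 library lay below every control library. These 9 members compare with 3.04% of all tested genes, and no member lay above control throughout, as 7.73% of all tested genes did. CCNB1 had 216.4, 243, 186 and 189.3 CPM, FOXM1 167.5, 163.7, 165.7 and 168, and UBE2C 59.2, 61.9, 51.9 and 51.7. In CCNB1 and UBE2C the ranges overlapped with control.

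Lactate and I-BET762 together lowered 25 of the 43 members against control and raised none. Of all tested genes 7.72% fell and 13% rose, 20.7% in all. The members' median log2 fold change was -0.38 (all tested genes -0.01), and 41 of 43 lay below 0, as 51.3% of all tested genes did. In 29 members every library given both lay below every control library, which 14.8% of all tested genes did, and in none did every library lie above (16.5%). All 5 tested kinetochore members and 7 of 8 kinesins were among the lower ones, and none of the 3 anaphase members.

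The kinetochore members had the lowest median of the roles, -0.65. NDC80 had 77.6, 69.3, 78.9 and 76.2 CPM with both treatments, all below its lowest control library of 114.8, and fell by 0.70 (SE 0.17, adjusted p = 0.00804). CENPE had 83.5, 67, 74 and 69.2 CPM, all below the lowest control of 114.1, and fell by 0.71 (SE 0.20, adjusted p = 0.0196). CENPF had 172.9, 150.9, 199 and 179.4 CPM and fell by 0.65 (SE 0.11, adjusted p = 0.00115). For these 3 genes no library given both treatments reached the control range. CENPA, the histone H3 variant that marks centromeres, fell by 0.47 (adjusted p = 0.0372), and NUF2, the partner of NDC80, fell by 0.42 (adjusted p = 0.0137).

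Among the cyclins, CCNA2 had 41.3, 42.5, 50.1 and 43.6 CPM with both and fell by 0.52 (SE 0.10, adjusted p = 0.00233). CCNB1 had 195.7, 176.3, 193.7 and 179.8 CPM, below its lowest control library of 234.5, and fell by 0.37 (SE 0.10, adjusted p = 0.0169). CCNB2, cyclin B2, fell by 0.29 at an adjusted p of 0.0498, next to the threshold. CDK1, with 112.3, 107, 124.2 and 117.5 CPM, was below its control range of 126.7 to 148.6 in every library, yet did not pass (log2 fold change -0.27, SE 0.15, adjusted p = 0.228). AURKA had 144.7, 131.4, 138 and 127 CPM, below its lowest control library of 181.9, and fell by 0.54 (SE 0.13, adjusted p = 0.00827). FOXM1 had 126.4, 106.2, 140.1 and 113.9 CPM and fell by 0.58 (adjusted p = 0.00308), and TPX2 fell by 0.43 (adjusted p = 0.0152). PLK1 had 84.1, 77.4, 77.3 and 80.9 CPM, AURKB 65, 58, 65.1 and 66.3, and BIRC5 145.7, 133.3, 150.5 and 151.5. All 3 overlapped with their control libraries and none passed.

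In the checkpoint BUB1 (119.6, 106.7, 116.4 and 99.5 CPM), BUB1B and TTK fell by 0.45, 0.54 and 0.38 (adjusted p = 0.00611, 0.0231 and 0.0153). Of the kinesins, KIF14, KIF20A, KIF4A, KIF23, KIF11, KIF2C and KIF18A fell by 0.63, 0.65, 0.52, 0.47, 0.45, 0.38 and 0.33, with adjusted p from 0.00141 for KIF14 to 0.0236 for KIF18A. KIF20B had a log2 fold change of -0.32 (SE 0.27). ECT2 (299.2, 265.5, 291.1 and 266.5 CPM) had the smallest p of all members in this comparison and fell by 0.56 (SE 0.09, adjusted p = 0.000856). ASPM fell by 0.58 and DLGAP5 by 0.42, and CKAP2 had -0.22 (adjusted p = 0.0563). MKI67 had 266.1, 211.2, 328 and 238.5 CPM, below its lowest control library of 363.6, and fell by 0.80 (SE 0.18, adjusted p = 0.00523). TOP2A had 502.5, 454.4, 553.3 and 481.6 CPM, just below its lowest control library, and a log2 fold change of -0.32 (adjusted p = 0.087). CDC20, UBE2C and PTTG1 had log2 fold changes of -0.04, -0.02 and -0.19. UBE2C, at 60.6, 59.8, 66.6 and 64.8 CPM, lay within its control range, and CDC20, at 143.2, 132.1, 127.1 and 121.6, overlapped with it.

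By exon length, 9 of the 15 shortest, 8 of the 14 in the middle and 8 of the 14 longest members were lower in this comparison. With the libraries' trends on GC content taken out, 12 members were lower, 11 of them among the 25, and with GC content and exon length together 19 were lower, 17 of them among the 25. Of all tested genes 5.21% and 6.72% were lower in these settings. GC correction also brought the share of higher genes among all called genes from 62.8% to 51.6%. Leaving out replicate 2 given both treatments left 15 members lower, and leaving out replicate 4 left 16, with 4.14% and 3.81% of all tested genes lower. Calls of 11 members ended when some 1 library was left out: CCNB1, CCNB2, TPX2, BUB1B, TTK, CENPA, CENPE, NUF2, KIF18A, KIF20A and ASPM. In CCNB2, CENPA, KIF18A and KIF20A this held for most of the 8 libraries. CCNA2, AURKA, FOXM1, CENPF, NDC80, KIF4A, KIF14, ECT2 and MKI67, 9 members, passed under each of the 21 alternatives.

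In cells that all had I-BET762, adding lactate lowered 3 of the 43 members, FOXM1 by 0.45 (SE 0.12, adjusted p = 0.0364), KIF4A by 0.35 (SE 0.10, adjusted p = 0.0406) and ECT2 by 0.34 (SE 0.09, adjusted p = 0.0473). Of all tested genes 1.57% fell and 3.34% rose, 4.9% in all. FOXM1 had 167.5, 163.7, 165.7 and 168 CPM with I-BET762 and 126.4, 106.2, 140.1 and 113.9 with both. ECT2 had 343.7, 384.3, 345.7 and 344.3 CPM with I-BET762 and 299.2, 265.5, 291.1 and 266.5 with both. KIF4A had 78.7, 66.9, 67.2 and 72.7 CPM with I-BET762 and 58, 48.9, 58 and 58.5 with both. None of the 3 overlapped, and in all 20 members were lower without overlap and none higher (11.3% and 11.2% of all tested genes). At an unadjusted p under 0.05 20 members were lower and none higher, against 8.42% of all tested genes lower and 11.1% higher, and the median was -0.23 (all tested genes 0). Leaving out any 1 library of these groups left 0 members, except that FOXM1 remained without replicate 3 given both. With GC content corrected 2 were lower, FOXM1 and KIF4A, as were 2.41% of all tested genes. The share of higher genes among all called genes went from 68.1% to 54.9%. Fitted on these 8 libraries alone, 19 members were lower, the 3 among them, with NDC80 (-0.55, adjusted p = 0.000688) and CENPE (-0.50, adjusted p = 0.0027) next to KIF4A, FOXM1 and ECT2. Calls rose over all tested genes as well in that fit, with 8.83% lower against the 1.57% above.

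The response to lactate without the inhibitor (lactate against control) and with it (both against I-BET762) shares no library. Across the 43 members the log2 fold changes of these comparisons had a Pearson's r of 0.61 and a Spearman's rho of 0.65, and 31 members were below 0 in both. Across all tested genes r was 0.67 and rho 0.64. These are descriptions across genes that share libraries. BUB1 had -0.62 without and -0.34 with the inhibitor, KIF11 -0.58 and -0.31, and FOXM1 -0.57 and -0.45. NDC80 had -0.18 and -0.55, and CENPE -0.12 and -0.49, with lactate replicate 1 in the first value of each.

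**Figure D5:**
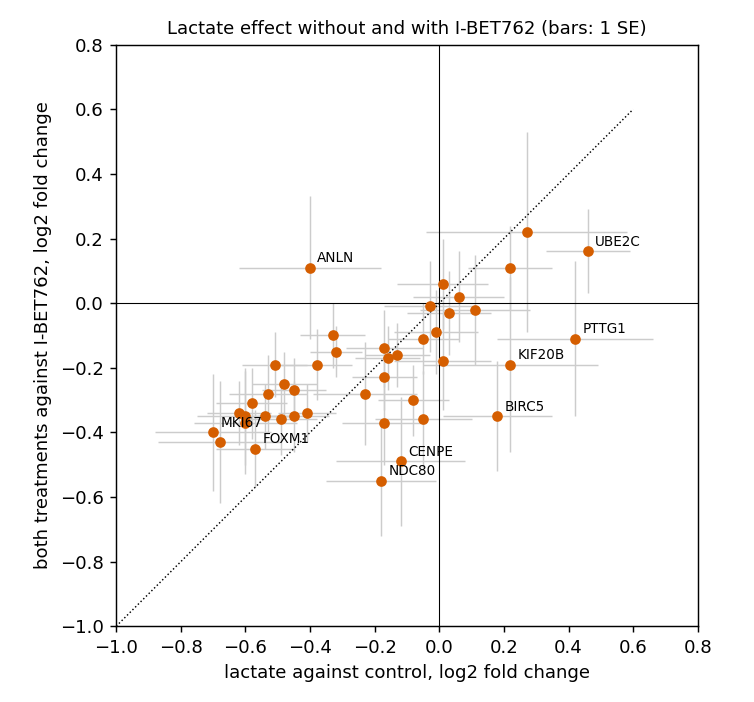
Log2 fold change under lactate in cells without I-BET762 (horizontal axis) and with it (vertical axis) for the 43 tested mitosis genes; bars are 1 SE and the dotted line marks equal values. Of the points, 31 lie below 0 on both axes, UBE2C lies highest on the horizontal axis at 0.46, and NDC80 and CENPE lie lowest on the vertical axis at -0.55 and -0.49.

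Whether lactate's effect differed with the inhibitor present was tested as the interaction, and 0 of 43 members passed by edgeR, DESeq2 or limma-voom, as did 0% of all tested genes by edgeR. At an unadjusted p under 0.05 there were 2 members, against 6.09% of all tested genes. They were BIRC5 with -0.53 (SE 0.24) and TTK with 0.32 (SE 0.14), both at an adjusted p of 0.7 by edgeR. The 95% intervals were wide, and that of BUB1 ran from -0.03 to 0.59 and that of PTTG1 from -1.26 to 0.20.

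In cells that all had lactate, adding I-BET762 changed 0 of 43 members and 0% of all tested genes by edgeR, and 0 members by DESeq2 and limma-voom. At an unadjusted p under 0.05 12 members were lower and none higher, against 9.19% of all tested genes lower and 6.43% higher. Without overlap 5 members were lower and 1 higher (3.78% and 3.82% of all tested genes). The median was -0.13 (all tested genes 0). UBE2C had 71.2 to 105.7 CPM with lactate and 59.8 to 66.6 with both, without overlap, and a log2 fold change of -0.48 (SE 0.13, adjusted p = 0.222). CENPE had -0.60 (SE 0.20, adjusted p = 0.261) and NDC80 -0.52 (SE 0.17, adjusted p = 0.247). PTTG1 had -0.61 (SE 0.25, adjusted p = 0.283). In all 4 of these genes lactate replicate 1 was the highest lactate library. The members of this comparison and those of I-BET762 against control share no library, and across the 43 members their fold changes had r 0 and rho 0.04, where all tested genes had r 0.33 and rho 0.30.

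The other genes of the same machinery were read from 6 lists of 119 genes, of which 116 were tested. Under lactate 25 of these were lower and 5 higher, with a median of -0.19, and with both treatments 27 were lower and 7 higher, with a median of -0.21. In all 25.9% and 29.3% passed, against 23.7% and 20.7% of all tested genes. By direction 21.6% and 23.3% were lower, against 10.1% and 7.72%. With I-BET762 alone 0 passed (8 lower and 7 higher at an unadjusted p under 0.05). Cohesin, condensin and separase genes gave 8 of 20 lower under lactate and none higher, among them STAG2 (-0.43, adjusted p = 0.00924), NCAPH (-0.67, adjusted p = 0.0114), PDS5A (-0.59) and STAG1 (-0.58). With both treatments 6 of 20 were lower and 1 higher, among them SMC4 (-0.63, adjusted p = 0.00872). Cohesin holds sister chromatids together, condensin folds mitotic chromosomes and separase opens cohesin at anaphase.

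Of 32 further centromere and kinetochore genes, 5 fell and 2 rose under lactate, and 9 fell and 3 rose with both. The share that passed under lactate, 21.9%, was near the 23.7% of all tested genes, and with both it was 37.5% against 20.7%. ZWILCH, which brings dynein to kinetochores, had 82.4 ± 6.5 CPM in control, 54.4 ± 4.14 with lactate, 79.3 ± 7.54 with I-BET762 and 58.2 ± 3.03 with both (SD, n = 4). It fell by 0.60 under lactate (adjusted p = 0.00101) and by 0.45 when lactate was added to I-BET762 (adjusted p = 0.0146). SKA3 and KNL1 fell under lactate by 0.56 and 0.65, and PMF1 rose by 0.87. Of 17 further spindle and cytokinesis genes 4 fell under lactate and 4 with both, 23.5% in each, and none rose. Of all tested genes 10.1% and 7.72% fell, and 23.7% and 20.7% passed in either direction. RACGAP1, the partner of KIF23 in centralspindlin, fell by 0.25 under lactate (adjusted p = 0.0418) and by 0.44 with both (adjusted p = 0.00182). CKAP2L, SPAG5 and CKAP5 fell under lactate by 0.47, 0.34 and 0.64.

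Of 17 further anaphase-promoting complex genes, 3 fell and 2 rose under lactate and 1 fell and 3 rose with both. The shares that passed, 29.4% and 23.5%, were near those of all tested genes, 23.7% and 20.7%. ANAPC11, the RING subunit of the complex, had 39.4 ± 10.6 CPM in control and 84.1 ± 34.3 with lactate (SD, n = 4) and rose by 1.09 (adjusted p = 0.00526). CDC23 and ANAPC1, subunits of the complex, fell by 0.43 and 0.94, and FBXO5, its inhibitor EMI1, fell by 0.44. FZR1, which replaces CDC20 late in mitosis, rose by 0.88 with both treatments (adjusted p = 0.00526). Of 12 further kinase and passenger complex genes, 2 fell and 1 rose under lactate and 4 fell with both (25% and 33.3%). MELK, HASPIN and PKMYT1 had -0.28, -0.51 and 0.70 under lactate, each past the threshold. Of 18 genes that transcribe or repress G2 and M phase genes, 3 fell under lactate and 3 with both, 16.7% in each, and none rose. Of all tested genes 10.1% and 7.72% fell, and 23.7% and 20.7% passed in either direction. The genes that fell were RBL1, RBBP4 and LIN54 under lactate (-0.64, -0.26 and -0.42), parts of DREAM and MuvB complexes, and RBBP4, LIN54 and TFDP1 with both (-0.36, -0.51 and -0.31).

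DNA replication genes were read beside them as another part of the cell cycle. Of 34, 7 fell and 1 rose under lactate (median -0.17), and 8 fell and 1 rose with both (median -0.20). The shares that passed, 23.5% and 26.5%, were near those of all tested genes, 23.7% and 20.7%, and those lower were 20.6% and 23.5%, against 10.1% and 7.72%. MCM3, a subunit of the replicative helicase, fell by 0.60 under lactate (adjusted p = 0.00127) and by 0.55 with both (adjusted p = 0.0016). The mitosis genes and the replication genes were not tested against each other.

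Markers of other cell types were near 0. Of the fibroblast list DCN had 0 counts and LUM at most 2, and 1 of 6 genes was tested, COL1A1, which rose from 3.64 ± 0.352 to 6.38 ± 1.82 CPM under lactate (SD, n = 4). Of the leukocyte list CD3E had 0 counts and PTPRC at most 1, and of 2 tested genes CD68, with 5 to 21 counts, rose by 1.12. Of the endothelial list 1 of 4 was tested, PECAM1 with 1 to 13 counts, and it did not pass. Of the 6 epithelial markers 3 rose under lactate, CLDN4 by 1.11, KRT19 by 0.76 and KRT8 by 0.49, and 2 with both. KRT18, EPCAM and CDH1 did not pass under lactate. Of all tested genes 13.6% rose under lactate and 13% with both. The part of these markers in the mitosis gene results was not tested.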

How the data were processed

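Polyadenylated RNA of 16 DU145 cultures was sequenced as single-end 75 bp reads with a strand-marking kit, per the labels' protocols. The deposited values are raw counts of reads for each Ensembl gene. STAR 2.6.1c, DESeq, GRCh38.p12 and hg38 are named in the submitters' processing notes. Which program counted the reads, and with what strand setting and annotation, is not given in the sources used here. Groups follow the sample titles; the cell line field of the samples given both treatments carries other line numbers.

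Genes passing filterByExpr (minimum count 10, minimum total 15) were fitted by edgeR 4.0.16 (R 4.3.3) as group means of 16 libraries, with TMM and 12 residual degrees of freedom (biological coefficient of variation 0.183). Tests were two-sided quasi-likelihood tests, Benjamini-Hochberg adjusted over 14690 genes. The kept genes held at least 99.82% of every library's counts. Alternatives used limma 3.58.1, DESeq2 1.42.0, other scalings, filters, GC and length corrections by splines with 5 degrees of freedom, a replicate block and left-out libraries. Symbols, exon lengths and coordinates are from GENCODE 29 on GRCh38.

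The members and lists were chosen with earlier results of these data known. Values by library are given for the 12 changed members of smallest p under lactate and for 12 members listed in the rule (23 in all), and for others where a library stood apart, chosen after their values were seen. Of other lists, up to 4 genes of smallest p are named under lactate and up to 3 elsewhere. Promoters shown are those of smallest p among changed members with both motifs before the start site, and of largest p among unchanged ones.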

Additional observations from a re-analysis of the deposited data

Results flagged for a closer look

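Each group of 4 libraries of the 23 members printed by library was searched for a library whose gap to its nearest neighbour exceeded Dixon's 95% limit, as a share of the group's range. This occurred in 5 of 92 groups. Chance does so in about 1 in 20 groups. KIF4A was low at 48.9 CPM and AURKB at 58.0 CPM in replicate 2 given both treatments, where the other 3 libraries had 58 to 58.5 and 65 to 66.3. FOXM1 was high at 190.5 CPM in control replicate 4, against 177.5 to 179.6. ECT2 was high at 384.3 CPM in I-BET762 replicate 2, against 343.7 to 345.7, and that library's HEXIM1 also went against its label. TOP2A was high at 840.6 CPM in lactate replicate 1, against 537.8 to 584.9.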

How the results depend on the processing

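Both treatments against I-BET762 gave 3 lower members. It gave 1 with total counts alone and 1 with no filter on low counts (NDC80 in each), 5 with the replicate block, 7 with DESeq2, 8 with GC content and exon length corrected, 10 with that correction and the block, and 19 with the groups fitted alone. In the same order 1.32%, 0.628%, 2.33%, 3.17%, 3.77%, 5.11% and 8.83% of all tested genes were lower, against the 1.57% given above. The same comparison gave 0 without the libraries whose HEXIM1 went against the label, where 0.953% of all tested genes were lower. It gave 10 without these and lactate replicate 1 (3.79%), a setting chosen after seeing the data. Leaving out 1 library gave 0 to 1, with 0.525% to 1.17% of all tested genes lower. Both treatments against control gave 25, and 16 with no filter, 12 with GC content corrected and 15 to 24 leaving out 1 library. Of all tested genes 7.72% were lower there, and 2.41% with no filter and 5.21% with GC content corrected. Lactate against control gave 19, and 6 with the groups fitted alone and 15 (without control replicate 3) to 23 (without lactate replicate 1). Of all tested genes 10.1% were lower there, and 1.21%, 4.63% and 10.7% in those settings. In these 3 comparisons the other settings stayed within 1.5 times. In I-BET762 against control, both treatments against lactate and the interaction the count was 0 in every setting run. CDC25B, with 0.01 under both treatments against control, had -0.36 (adjusted p = 0.0388) with GC content and exon length corrected and -0.37 (adjusted p = 0.0158) with the block too. KIF20B under lactate, 0.22, ran from -0.36 without lactate replicate 1 to 0.39 leaving out 1 library. Taking only the bases before the start site, 50% of member windows held a CHR, 72.9% CCAAT and 41.7% both. The labels do not say that a replicate number marks a shared culture or day, and not every same-numbered pair had deviations correlated over 0.1 (16 of 24, range -0.26 to 0.421), so pairing was not assumed. It was not ruled absent: a library correlated best with its own number in 24 of 48 lookups among 4 libraries each, where 1 in 4 would do so without pairing. The block left the other counts at 19, 25 and 0. The causes of these differences were not tested.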
